A study of Mus musculus with 2 samples.

Results

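Tcf1 occupancy was examined at the genes of 4 Groucho corepressors (Tle1, Tle2, Tle3 and Tle4), the short Groucho-related gene Aes, and 5 histone deacetylases (Hdac1, Hdac2, Hdac3, Hdac4 and Hdac7). The 10 genes were picked with earlier results of these data known, so their shares below are descriptions, and their peaks were then taken by position. A deposited Tcf1 peak was included when its summit lay in one of these 10 genes or within 50 kb of either end, on the mm9 build with the GENCODE vM1 annotation. This gave 62 of the 22286 deposited peaks. Of these 62, 56 met the high-confidence criteria of the study, which are a fold minimum of 4, p under 1e-05 and q under 0.05. That is 90.3%, and 85.4% of the whole list met them.

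The study performed ChIP-seq with an antiserum against full-length Tcf1 on naïve CD8+ T cells sorted from mouse spleen as GFP+ TCRbeta+ CD62Lhi CD44lo-med CD8+ cells, with 1 WT library and 1 Tcf1-deficient library. According to the series description both groups carry hCD2-Cre and Rosa26-lsl-GFP, with Tcf1/Lef1 either wild-type or double floxed, and the genotype field of the control reads Tcf1-/-Lef1-/-. The methods of the study instead describe Cd4-Cre+ Tcf7 fl/fl mice for this ChIP-seq, so the sources do not settle which Cre was used or whether Lef1 was also absent from the control cells. The labels give no age. Mice were on the C57BL/6 background. The study describes hCD2-Cre as acting chiefly in peripheral T cells, while Cd4-Cre becomes active in double-positive thymocytes, and GFP marks cells in which Cre has acted.

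After removal of duplicates the WT library held 36938606 fragments and the Tcf1-deficient library 27625250. With 1 library per group there was no replicate check and no test between groups, and all intervals below cover counting error only. Intervals of fold enrichments cover that of the WT pileup and hold the control level fixed, so they leave out the counting error of the Tcf1-deficient library. The series holds peaks and no expression values, so the sorted cell type could not be checked against its markers. At Tcf7, which encodes Tcf1 and is the targeted gene, the gene and 50 kb on either side held 19 high-confidence peaks with a largest fold enrichment of 142.

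Groucho proteins do not bind DNA. They are brought to chromatin by DNA-binding factors, among them the Tcf/Lef, Runx and Hes families, and there they recruit histone deacetylases and keep target genes silent. A Tcf/Lef protein bound to Groucho represses, and displacement of Groucho by beta-catenin turns the same site to activation in the canonical Wnt pathway. Aes shares the amino-terminal Groucho domain that contacts Tcf/Lef factors but lacks the WD40 repeats of the full-length Tle proteins. Hdac1 and Hdac2 are the catalytic subunits of the NuRD, Sin3 and CoREST complexes, Hdac3 is that of the NCoR complex, and the class IIa enzymes Hdac4 and Hdac7 shuttle between nucleus and cytoplasm and bind Mef2 factors. The comparison of the WT with the Tcf1-deficient library asks where Tcf1 was bound in WT cells, here at genes of Groucho-related proteins and histone deacetylases. Whether these proteins act with Tcf1 in these cells was not tested.

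The sequences below are of peaks with the exact Tcf/Lef core ATCAAAG, or of the strongest peak of the Tle4, Hdac4 or Hdac7 window. Other strong peaks, such as those of 34.0 and 22.7 in Hdac4, are not shown. Each sequence covers 75 bp on either side of a summit on the plus strand of mm9, 5′ to 3′. Capitals mark any of 4 Tcf/Lef words on either strand. These are the exact core ATCAAAG, the variant that begins with AA, which is AACAAAG, the variant that begins with TA, which is TACAAAG, and the variant that begins with TT, which is TTCAAAG. On the minus strand the exact core reads as CTTTGAT, and the variant that begins with TT reads as CTTTGAA.

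In 5 peaks the exact core stood no more than 100 bp from the summit. The Aes peak is in exon 2 of Aes (chr10:81023962-81024112). The Tle3 peak is intergenic, past the 3′ end of Tle3 (chr9:61274907-61275057). The peak in the Hdac1 window is in intron 1 of the neighbouring gene Lck (chr4:129242561-129242711). The first Hdac4 peak with the core is in intron 16 (chr1:93858921-93859071) and the second in intron 1 (chr1:94001394-94001544).
Aes exon 2: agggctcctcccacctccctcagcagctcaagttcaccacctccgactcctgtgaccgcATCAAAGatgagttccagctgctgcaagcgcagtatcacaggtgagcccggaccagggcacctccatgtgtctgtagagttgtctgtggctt
Tle3 downstream: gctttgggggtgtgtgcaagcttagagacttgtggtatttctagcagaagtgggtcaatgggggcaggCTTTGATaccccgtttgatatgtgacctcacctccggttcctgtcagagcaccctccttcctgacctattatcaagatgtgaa
Lck intron 1, Hdac1 window: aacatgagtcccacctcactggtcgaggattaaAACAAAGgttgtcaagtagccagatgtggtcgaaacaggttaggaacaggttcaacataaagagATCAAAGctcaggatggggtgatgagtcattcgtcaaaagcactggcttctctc
Hdac4 intron 16: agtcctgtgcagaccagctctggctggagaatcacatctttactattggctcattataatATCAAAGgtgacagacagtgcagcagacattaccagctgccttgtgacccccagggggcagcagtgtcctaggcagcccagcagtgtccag
Hdac4 intron 1: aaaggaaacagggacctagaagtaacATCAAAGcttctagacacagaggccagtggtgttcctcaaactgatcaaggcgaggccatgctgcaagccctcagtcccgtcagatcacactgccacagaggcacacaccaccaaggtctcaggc

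The strongest peaks of the Tle4, Hdac4 and Hdac7 windows lacked the exact core in the stretch shown and are set beside them, chosen for display after their values were seen. They lie in intron 4 of Tle4 (chr19:14662844-14662994), intron 1 of Hdac4 (chr1:93966234-93966384) and intron 1 of Hdac7 (chr15:97672703-97672853). Tle4 carries the TA variant and Hdac7 the AA and TT variants, while the strongest Hdac4 peak has none of the 4 words and runs into a repeat of TG. No match says only that these letters are not in this stretch.
Tle4 intron 4: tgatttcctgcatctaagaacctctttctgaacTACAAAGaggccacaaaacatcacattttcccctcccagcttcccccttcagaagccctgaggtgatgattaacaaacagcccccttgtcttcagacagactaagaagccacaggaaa
Hdac4 intron 1, strongest: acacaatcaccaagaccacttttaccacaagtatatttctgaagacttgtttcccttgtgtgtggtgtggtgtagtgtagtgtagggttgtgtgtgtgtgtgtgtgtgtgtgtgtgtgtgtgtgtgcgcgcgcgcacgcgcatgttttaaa
Hdac7 intron 1: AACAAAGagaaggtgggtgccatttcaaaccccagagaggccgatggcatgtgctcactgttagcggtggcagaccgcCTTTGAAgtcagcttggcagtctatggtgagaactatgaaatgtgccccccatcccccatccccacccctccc

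All 10 genes had at least 1 high-confidence Tcf1 peak in their window, as did 66.5% of 22209 protein-coding genes. Numbers differed widely between members. Tle1 and Hdac2 had 1 each, Hdac3 had 5, Tle3 had 6, Tle2, Tle4, Aes and Hdac1 had 7 each, Hdac7 had 9 and Hdac4 had 12. Among protein-coding genes the median was 1 (interquartile range 0 to 3). As many peaks as at Hdac4 were found at 0.901% of protein-coding genes, and as many as at Hdac7 at 3.07%. The exact Poisson interval of the Hdac4 count was 6.20 to 21.0 and that of the Hdac7 count 4.12 to 17.1. These overlap each other and the counts of 7. They treat peaks as independent events, though peaks often stand close together, so no order among the richer windows is read from them. Tle1 and Hdac2, with an upper bound of 5.57, lay below the 12 peaks of Hdac4.

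Windows also differ in length, and Hdac4 is the longest gene of the set at 220 kb. Per Mb of window, Aes had 65.5 peaks, Tle2 60.2, Hdac7 59.3, Hdac1 55.3, Hdac3 42.0, Tle3 41.1, Hdac4 37.5, Tle4 28.0, Hdac2 7.85 and Tle1 5.44. Hdac4 was thus first by count and seventh by rate, and a rate as high as its own was found at 14.6% of protein-coding genes. Over the merged windows of 1.56 Mb the rate was 36.0 per Mb (27.2 to 46.7), against a median of 9.72 (interquartile range 0 to 26.5) for windows of protein-coding genes and 7.21 for the whole of the numbered chromosomes and X. Tle2 and Aes are neighbours on chromosome 10 and shared 6 peaks, which were counted once in all totals.

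**Figure D1:**
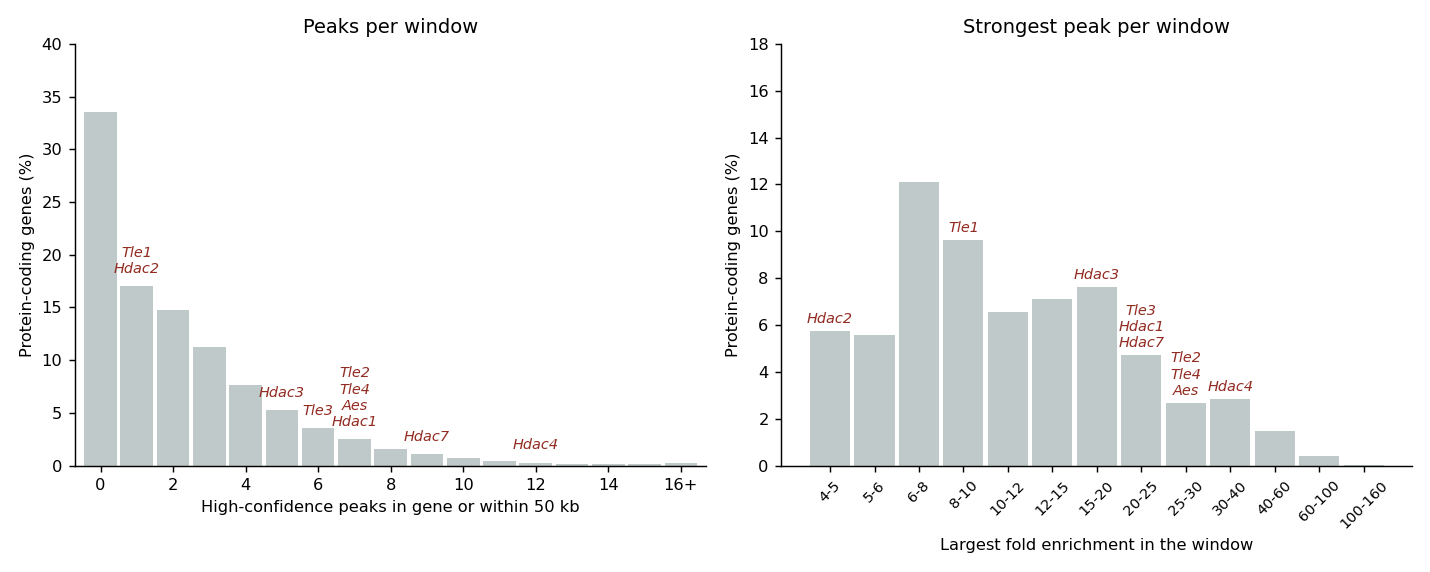
Protein-coding genes (n = 22209, grey bars, % of all such genes) by number of high-confidence Tcf1 peaks in the gene or within 50 kb (left) and by the largest fold enrichment in that window (right, bins of unequal width, genes without a peak not drawn). Names mark the bin of each of the 10 genes: Tle1 and Hdac2 sit at 1 peak and Hdac4 at 12. A peak of 20-fold or more lies in 7 of the 10 windows, the Aes peak being counted for both Aes and Tle2.

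Not every peak of a window belongs to the named gene. A member's start site was the nearest of all protein-coding start sites for 32 of the 56 peaks, and another gene's for the other 24. All 7 peaks of the Tle4 window and all 12 of the Hdac4 window were nearest to Tle4 or Hdac4 itself, as were 6 of 9 at Hdac7 and 3 of 6 at Tle3. At Tle1, Aes, Hdac1 and Hdac2 only 1 peak was nearest to the named gene, and at Tle2 and Hdac3 none was. The median fold enrichment was 8.64 for the 32 peaks and 6.23 for the 24, a description without a test.

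**Figure D2:**
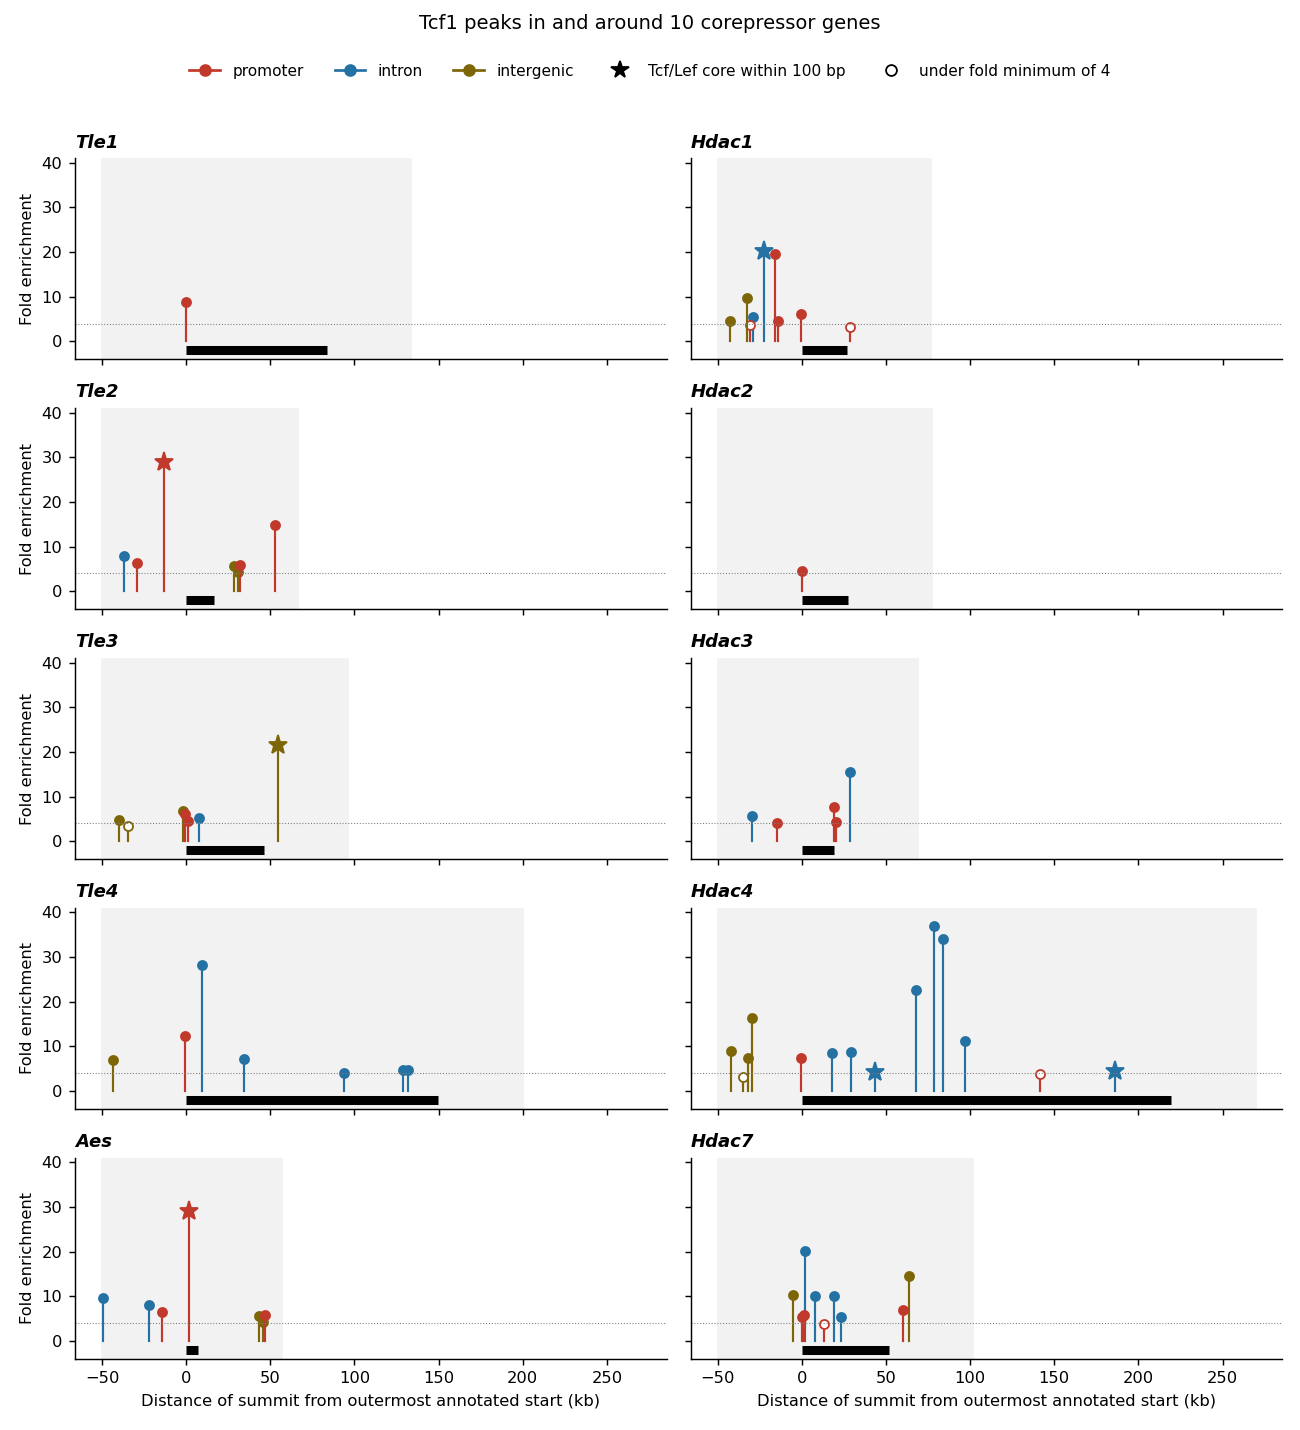
Fold enrichment of each deposited Tcf1 peak (vertical axis) by the distance of its summit from the outermost annotated start of the gene (horizontal axis, kb, in the direction of transcription), 1 panel per gene, with the gene as a black bar and its window in grey. Promoter here means within 1 kb of a start site of any gene, stars mark peaks whose summit has the exact core no more than 100 bp away and open circles fall under the fold minimum (dotted line); the tallest peaks, 36.9 and 34.0, stand together inside Hdac4.

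Among the Groucho genes, Tle4 (chr19:14522562-14672473, minus strand) was bound mainly within the gene. The strongest of its 7 peaks, in intron 4 at chr19:14662596-14663242, lay 9.55 kb into the gene. It had 197 WT fragments over the summit (exact Poisson interval 170 to 227) against a control level of 6.02, a fold enrichment of 28.2. The control level is the local level of the Tcf1-deficient library scaled to WT depth, and it cannot fall below a genome-wide floor of 5.42. The peak at the Tle4 start site (chr19:14671672-14673164), with its summit 454 bp upstream, had 78 WT fragments (61.7 to 97.3) and a fold enrichment of 12.3. The intervals of these 2 pileups did not overlap. The other 5 Tle4 peaks, 4 of them in introns 5, 8 and 11 and 1 lying 43.7 kb upstream, had fold enrichments from 4.05 to 7.17. The exact core was absent from the 100 bp on either side of each of the 7 summits.

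Tle3 (chr9:61220190-61266297, plus strand) showed the opposite arrangement, with its strongest peak outside the gene. The intergenic peak at chr9:61274694-61275285 lay 8.69 kb past the 3′ end of Tle3, and its nearest coding start site was also that of Tle3. It had 137 WT fragments (115 to 162) over a control level at the floor, a fold enrichment of 21.5, with the exact core 4 bp from the summit. At the start sites of Tle3 the signal was weak. The peak at chr9:61219297-61220442, 669 bp upstream of the outermost start and over the first exon of the predicted gene Gm10655, had 38 fragments (26.9 to 52.2) and a fold enrichment of 6.08. A second one at chr9:61221339-61221827, 7 bp from an internal Tle3 start, had 28 fragments (18.6 to 40.5) and a fold enrichment of 4.52. Neither interval reached that of the downstream peak.

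Tle1 (chr4:71778176-71861953, minus strand) had 1 peak, at its start site (chr4:71861810-71862765, summit 130 bp upstream). It had 78 WT fragments (61.7 to 97.3), the same number as the Tle4 start-site peak. Its control level was higher, 8.02, so its fold enrichment was 8.76 rather than 12.3. It was the only summit of the whole list in the 83.8 kb of Tle1 and the 50 kb on either side. The sequence to 100 bp on either side of it was 77.6% G and C, the highest content among the 56 peaks, and that at the Hdac2 start was 76.1%, against a median of 52.7%.

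Aes (chr10:81022239-81029107) and Tle2 (chr10:81037306-81053590) lie side by side on the plus strand, and the strongest peak of both windows was the Aes peak at chr10:81023672-81024401. It had 185 WT fragments (159 to 214) over a control level at the floor, and a fold enrichment of 29.0. The summit was 114 bp downstream of the second annotated Aes start and 1.80 kb downstream of the outermost one. It fell in exon 2 of the longest Aes transcript, with the core 13 bp from the summit. Tle2 itself had 0 high-confidence peaks in the gene and 0 within 1 kb of any of its 16 annotated start sites. The other peaks of its window lay at or near Gna11 (7.94 and 6.39), upstream of Tle6 and BC025920 (5.61 and 4.21), at the start of BC025920 (5.92) and at the start of Sirt6, which encodes a sirtuin deacetylase (14.8, with 94 fragments, 76.0 to 115). An Aes window peak in intron 4 of Gna15 had a fold enrichment of 9.69.

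The class I deacetylase genes had few peaks of their own. Hdac2 (chr10:36694350-36721695, plus strand) had 1, in exon 1 of the gene (chr10:36694142-36694707), with 28 WT fragments (18.6 to 40.5), a fold enrichment of 4.52 and a lower bound of 3.05, below the fold minimum. Hdac1 (chr4:129193348-129219957, minus strand) had 1 at its start site (chr4:129219863-129220516, summit 256 bp upstream), with 38 fragments (26.9 to 52.2) and a fold enrichment of 6.08. Hdac3 (chr18:38095498-38114642, minus strand) had none within 1 kb of a start site or in the gene.

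The larger signals of the class I windows were at neighbouring genes. In the Hdac1 window they lay at Lck, which encodes the kinase that starts T cell receptor signalling. The peak in intron 1 of Lck (chr4:129242312-129242893), 22.7 kb upstream of Hdac1, had 129 fragments (108 to 153) and a fold enrichment of 20.3, with the exact core 25 bp from the summit. A peak at an Lck start site (chr4:129235467-129236267) had 124 fragments (103 to 148) and a fold enrichment of 19.5, within counting error of the first. In the Hdac3 window the strongest was in intron 1 of Diap1, the gene of a formin that builds actin filaments (chr18:38085436-38086022), with 98 fragments (79.6 to 119) and a fold enrichment of 15.4. A Diap1 start-site peak reached 7.63, and the remaining 3 peaks of the Hdac3 window ranged from 4.05 to 5.61.

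Of the class IIa genes, Hdac4 held the 2 highest fold enrichments of the set, while the largest at Hdac7, 20.1 (17.4 to 23.1), was below those at Aes and Tle4 and within counting error of those at Tle3 and in the Hdac1 window. By pileup, the Hdac7 peak, with 194 fragments (168 to 223), was above these last, at 137 (115 to 162) and 129 (108 to 153), and overlapped with Aes, at 185 (159 to 214), and Tle4, at 197 (170 to 227). Its control level was 8.69, against 5.42 at Aes and 6.02 at Tle4. In Hdac4 (chr1:93825362-94044970, minus strand), 6 peaks lay in intron 1, 1 in intron 2 and 1 in intron 16, 1 lay at the start site and 3 lay upstream. The peak at chr1:93965777-93966619 had 236 WT fragments (207 to 268) and a fold enrichment of 36.9, ranking 329 in the whole list. Its neighbour at chr1:93960732-93961473 had 217 fragments (189 to 248) and a fold enrichment of 34.0, and their intervals overlapped. A further intron 1 peak, at chr1:93976513-93977196, had 145 fragments (122 to 171) and a fold enrichment of 22.7. These 3 lay 68.1 to 83.9 kb from the outermost start, all over a control level at the floor. Next came an upstream peak, 29.8 kb before the gene, with 104 fragments (85.0 to 126) and a fold enrichment of 16.4. The Hdac4 start-site peak (chr1:94044984-94045457, summit 339 bp upstream) had 47 fragments (34.5 to 62.5) and a fold enrichment of 7.48, below each of the 3 strong intron peaks by intervals that did not overlap.

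The Hdac4 peaks with the exact core no more than 100 bp from the summit had the lowest fold enrichments of its 12. Farther from the summit, the core was also found in the upstream peaks of 16.4 and 8.88. The intron 16 peak (chr1:93858889-93859078) had 28 fragments (18.6 to 40.5) and the intron 1 peak (chr1:94001269-94001564) had 26 (17.0 to 38.1), with fold enrichments of 4.52 and 4.21. The core stood 12 and 46 bp from their summits. The lower bounds of both fold enrichments, 3.05 and 2.80, were under the fold minimum.

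Hdac7 (chr15:97623095-97674933, minus strand) had 5 peaks in intron 1, from 5.45 to 20.1. The strongest (chr15:97672294-97673071) lay 2.15 kb into the gene and had 194 fragments (168 to 223) against a control level of 8.69, a fold enrichment of 20.1. The control level of 8.69 was the highest of all 56 peaks and was shared with the peak at 7.79 kb, which had 97 fragments (78.7 to 118) and a fold enrichment of 10.1. By pileup the first overlapped in its interval with the Hdac4 peak of 217 fragments, whose fold enrichment was 34.0 over a control level at the floor. Start-site peaks had 37 fragments (26.1 to 51.0, fold enrichment 5.92, chr15:97673637-97673999) and 34 fragments (23.5 to 47.5, 5.45, chr15:97674639-97674948). Both start-site peaks carried the Runx core TGTGGTT. Peaks of 10.3 at 5.17 kb upstream and of 14.6 near Slc48a1 completed the stronger part of the window.

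**Figure D3:**
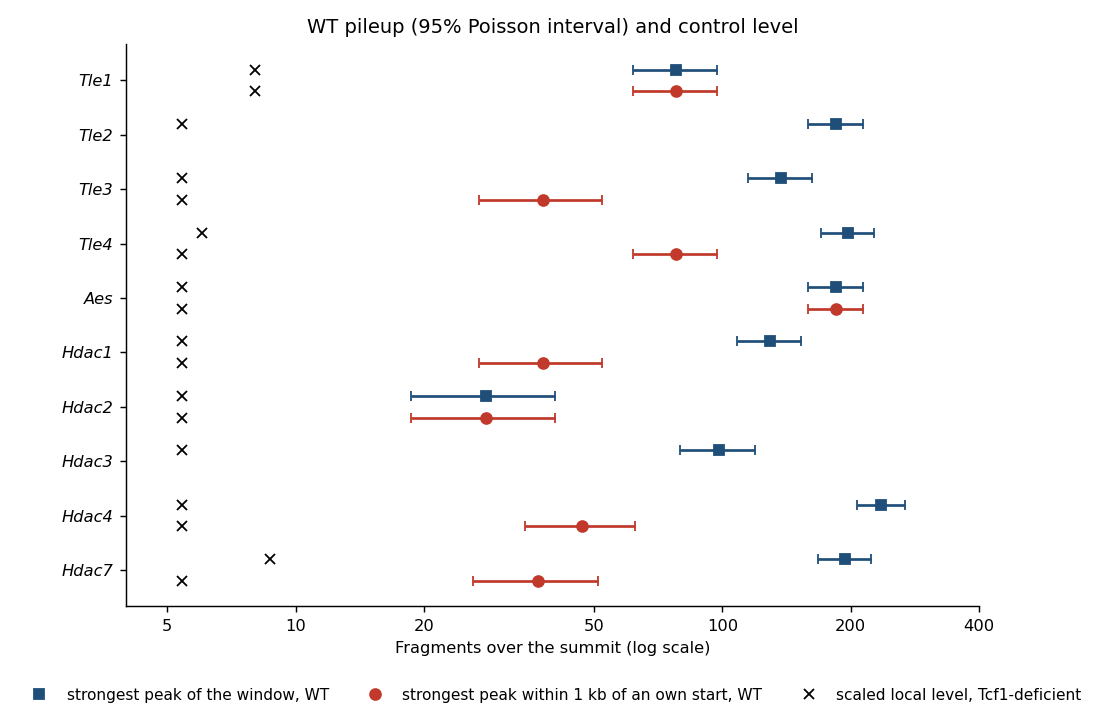
WT fragments over the summit (log scale) of the strongest peak in each window (squares) and of the strongest peak within 1 kb of an own start site (circles), with 95% exact Poisson intervals, and the scaled local level of the Tcf1-deficient library (crosses). At Tle3, Tle4, Hdac1, Hdac4 and Hdac7 the strongest peak lies away from the start site, at Hdac1 in intron 1 of Lck and at Hdac7 by 1.82 kb. The intervals do not overlap there, but the strongest peak was picked as the largest, so the direction was fixed by choice. At Tle1, Aes and Hdac2 both symbols are the same peak, and Tle2 and Hdac3 have no own-start peak.

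Start-site peaks were common among the 10 genes but mostly small. A high-confidence summit lay within 1 kb of an own annotated start at 8 of 10 genes, against 32.9% of protein-coding genes. With the outermost start only it was 7 of 10, against 30.3%, Aes being the gene lost. A fold minimum of 8 left 3 of 10, and the share of all protein-coding genes at that minimum is not given. The 10 own-start peaks had fold enrichments from 4.52 to 29.0, with a median of 6.08. All promoter peaks of the list had a median of 6.54.

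Of the 56 peaks, 19 (33.9%) lay within 1 kb of a start site of any gene, 24 (42.9%) in introns and 13 (23.2%) between genes. Over all 19042 high-confidence peaks these shares were 39.6%, 30.6% and 27.4%. The exact binomial intervals were 21.8 to 47.8, 29.7 to 56.8 and 13.0 to 36.4, so each share of the whole list lay within the interval. The class IIa windows had 12 of 21 peaks in introns (57.1%, 34.0 to 78.2), above the whole-list share, and the class I windows 4 of 13 (30.8%, 9.09 to 61.4). Introns make up different parts of these windows, and no test was made of the difference. A further high-confidence summit lay within 10 kb of 34 peaks (60.7%, 46.8 to 73.5), against 49.1% of all.

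Strength was near that of the whole list. Fold enrichment had a median of 7.32 and an interquartile range of 5.41 to 11.5, against a median of 6.86 over all high-confidence peaks, the median pileup 47 against 44 fragments, and the median width 560 against 484 bp. A fold enrichment of 20 or more was reached by 8 peaks (14.3%, 6.38 to 26.2), against 7.98% of the whole list, which lies within that interval. The largest value was 36.9 here and 142 in the whole list. They lay in 7 of the 10 windows, with the Aes peak counted for both Aes and Tle2, and 12.2% of protein-coding genes had such a peak in their window. Only 4 of the 8, at Aes, at Tle4 and the 2 strongest at Hdac4, kept a lower bound above 20. The median was 6.54 in the Groucho-related windows, 5.61 in the class I windows and 8.88 in the class IIa windows. Of the 56 peaks, 13 (23.2%) had a fold enrichment under 5, against 23.9% of all, and 37 had a lower bound above the fold minimum of 4. The control level was at its floor for 45 peaks (80.4%), against 86.3% of all, and at the other 11 it did not pass 8.69.

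Of the 56 peaks, 5 had the exact core no more than 100 bp from the summit (8.93%, 2.96 to 19.6), against 10.2% of all high-confidence peaks. Windows of the same length 2 kb to either side held it in 1.79% of 112 cases here and 3.31% over the whole list. The 6-base core TCAAAG was found at 14 peaks (25%, 26.4% of all). Any of the 4 words marked in the sequences above was found at 16 (28.6%, 28.3% of all), against 15.2% of the flanking windows here and 16.9% overall. Anywhere in the peak, the exact core was found in 12 peaks (21.4%), against 15.1% of all. Of the 10 own-start peaks, 5 held it somewhere in the peak, at Aes, Tle1, Tle3, Tle4 and Hdac1, against 8.89% of all promoter peaks. No more than 100 bp from the summit, 1 of the 10 held it (10%, 0.253 to 44.5), against 5.13% of all promoter peaks. Own-start peaks had a median width of 610 bp against 541 bp for all promoter peaks, and an upper quartile of 900 against 748 bp. The part of width in the share anywhere in the peak was not tested.

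Among the 8 peaks of 20-fold or more, 3 carried the exact core, at Aes, downstream of Tle3 and in Lck, against 20.6% of all peaks this strong. A further 2, at Tle4 and Hdac7, carried another of the 4 words, which makes 5 of 8 against 49.2%. The 3 strong Hdac4 peaks carried none of the 4, though the one of 34.0 had the 6-base core. Introns held 6 of these 8 peaks, against 40.7% of all peaks this strong.

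Runx and ETS cores were searched in the same windows, on both strands. The Runx core TGTGGTT was found at 11 of 56 peaks (19.6%, 10.2 to 32.4), against 15.5% of all and 7.14% of the flanking windows here. Of these, 4 were at Hdac4, including the peaks of 34.0 and 22.7, 3 at Hdac7, 2 at Tle4, and 1 each at Tle3 and in the Hdac3 window. The ETS core CGGAAGT was found at 3 peaks (5.36%, 1.12 to 14.9), against 6.93% of all, and these were the start-site peaks of BC025920, Sirt6 and Diap1. None of the 32 peaks nearest to a member had it, which with an exact binomial interval allows a share of up to 10.9%.

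**Figure D4:**
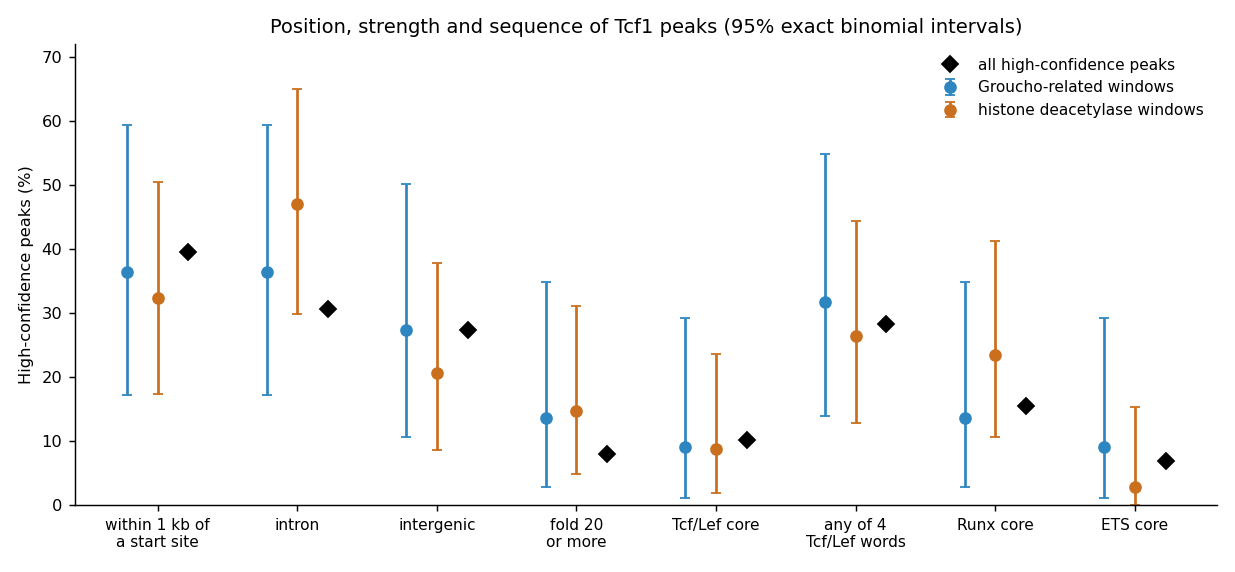
Share of high-confidence peaks (%) by position, strength and sequence in the Groucho-related windows (blue, n = 22 peaks) and the histone deacetylase windows (orange, n = 34 peaks), with 95% exact binomial intervals, beside all 19042 high-confidence peaks (black diamonds). The black diamonds fall within every interval of the 2 groups.

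Other deacetylase and corepressor genes were read from lists of 13 further deacetylases and sirtuins and of 23 corepressor subunits. These subunits are of the NCoR, Sin3, NuRD, CoREST and CtBP corepressors, with Tle6 added. Of the 13 deacetylases, 8 (61.5%) had a high-confidence peak within 1 kb of an own start and 12 had one in the window, with a median of 3 peaks. Of the 23 subunits, 14 (60.9%) had an own-start peak and 21 had one in the window, with a median of 4 peaks. Over all protein-coding genes these shares were 32.9% for an own-start peak and 66.5% for a peak in the window. The 10 corepressor and deacetylase genes had a median of 7. Windows holding a peak of 20-fold or more numbered 3 of 13, 3 of 23 and 7 of 10, against 12.2% of protein-coding genes. The Aes peak counts here for Aes, Tle2 and Tle6, and the Hdac1 window counts through a peak in Lck. Sirt6 and Tle6 stand next to Tle2 and Aes and share peaks with them, so the lists are not fully separate.

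The 50 kb limit left out peaks as strong as some inside it. Inside it, nearest to the limit, were the Gna15 peak of the Aes window, at 49.1 kb with a fold enrichment of 9.69, the Tle4 peak at 43.7 kb with 7.01, an Hdac1 window peak at 42.6 kb with 4.67, an Hdac4 peak at 42.2 kb with 8.88 and the Tle3 window peak farthest upstream with 4.83. Just outside were a second Gna15 peak 51.4 kb from Aes with 8.26 and a Diap1 peak 52.2 kb from Hdac3 with 8.27. A peak 53.0 kb from Tle2 had 4.36, and a peak 54.7 kb from Hdac1, nearest to Bsdc1, had 13.6. Farther out, nearest to the member itself, were peaks 56.7 kb from Tle3 with 8.57 and 59.2 kb from Tle4 with 6.39. Others, 57.9 to 59.8 kb from Hdac1, Tle2 and Aes, had 3.58 to 6.70.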

How the data were processed

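Reads were aligned by the authors to mm9 with Bowtie2 2.2.5, and per the file headers MACS2 2.1.1 called peaks on paired-end fragments at p 1e-05, keeping 1 fragment per position, in WT over Tcf1-deficient cells. In the deposited signal column, pileup counts WT fragments at the summit as whole numbers. The deposited fold enrichment is a ratio of pileup plus 1 to control level plus 1. The deposited −log10 p and −log10 q were used only for the high-confidence criteria; the other deposited values are positions and widths in bp. Control levels were computed back from pileup and fold enrichment.

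Of the 2 libraries, the kept fragments numbered 36938606 (WT) and 27625250 (control), a ratio of 1.34. At the control floor a fold of 4 needs a pileup of 25. Genes were taken from GENCODE vM1 (NCBIM37, the same build as mm9), with gene models of 1 symbol merged (2 for Hdac4). Introns and exons were numbered on the longest transcript. Promoter RefSeq sequences of another build were not used here.

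Intervals are exact Poisson for counts and exact binomial (Clopper-Pearson) for shares, at 95%. No test between groups was made, since each had 1 library. The code was tested on simulated data. Alternatives were fold minimum, q, window, promoter width, start sites of coding genes only, core, core distance, nearest start site and leaving out each window in turn. Values of 1 listed gene are not reported here. Members and lists were chosen with earlier results of these data known. Named peaks were the strongest of each window, those at an own start site and those with the exact core, and other peaks given with values were chosen after these were seen. Python 3.11.15, pandas 2.3.3, scipy 1.17.1 and matplotlib 3.10.9 were used.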

Additional observations from a re-analysis of the deposited data

Results flagged for a closer look

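The 6 deposited peaks of these windows under the fold minimum of 4 were counted in the share that met the criteria and enter no other comparison above, although each stood above the control level. At an internal start site of Hdac4 the fold enrichment was 3.74, with 23 WT fragments against a control level of 5.42. An internal start site of Hdac7 had the same values, 3.74 from 23 fragments. In the Hdac1 window, a peak at an Lck start site had 3.77 (28 fragments against 6.69) and a peak at Marcksl1 had 3.27 (20 fragments against 5.42). Upstream of Tle3 a peak had 3.42 (23 fragments against 6.02), and upstream of Hdac4 a peak had 3.12 (19 fragments against 5.42). The upper bounds of all 6 fold enrichments, from 4.78 to 5.53, passed the minimum of 4, so their side of it is within counting error. The exact core was absent from the 100 bp on either side of all 6 summits.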

How the results depend on the processing

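Across 9 results and 125 alternative values, 111 stayed within the interval of the reported value or, for counts, within 1.5 times of it. There was no test, so no call could be lost. Leaving out each window in turn moved none of 60 values past its interval, which is a weak check. The intervals come from the same 56 peaks, and no window held more than 12 of them. Tle2 and Aes share 6 peaks, so leaving out either window kept these, among them the Aes peak of 29.0. A fold minimum of 8 left 24 peaks in the windows, 15.4 per Mb, with a median fold enrichment of 14.7, a median width of 678 bp, 20.8% within 1 kb of a start site and 3 members with an own-start peak, which follows from the peaks this filter removes. Peaks nearest to a member's start numbered 32, with a median width of 642 bp and 0% with the ETS core, and a window of 10 kb held 35 peaks. A promoter width of 2.5 kb gave a share of 48.2%. The share with the Tcf/Lef core was 25% for the 6-base core, 28.6% for any of 4 words and 21.4% anywhere in the peak, which follows from easier or longer matching. The 4-word search, the split by gene group, the outermost start and the exclusion of start sites of other genes were chosen after seeing the data. No paired analysis was possible because each group had 1 library. The depth of 1 WT library limits peaks near the fold minimum, where the fold enrichment rests on about 25 fragments.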

Other observations

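Within the lists of further deacetylases and corepressor subunits the windows differed as widely as among the 10 genes. The values below are of whole windows, so a peak may be nearest to a neighbouring gene, which is not given here. Sirt2, a cytoplasmic sirtuin, had 11 high-confidence peaks with a largest fold enrichment of 30.5, and Sirt7, a nucleolar sirtuin, had 10 with 18.9. Hdac10 had 6 peaks with a largest fold enrichment of 26.3 and Hdac11 2 with 24.3. Hdac9, the class IIa relative of Hdac4 and Hdac7, had 0 peaks, and Hdac5, a further class IIa gene, had 3 with a largest fold enrichment of 12.6. Among the corepressor subunits, the largest fold enrichment was 34.3, at Ncor1, which encodes the scaffold that activates Hdac3, with 3 peaks. The NuRD subunit genes Mta3 and Mta2 had 9 and 8 peaks. Sin3b and Ctbp2 had 0. These genes were picked from the lists after their values were seen.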
